A study of Homo sapiens with 6 samples.

Results

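The genes described are those of the enzymes that place or remove acetyl and methyl groups on histones, measured by RNA sequencing of U87-MG cells. They were chosen by a rule on symbols, as the KMT, KDM, SETD, HDAC, SIRT, KAT and PRMT genes together with NSD1 to NSD3, EZH1, EZH2, EHMT1, EHMT2, SUV39H1 and SUV39H2. The rule left out 4 symbols and was set with earlier results of these data known. The rule took 76 of the 61806 genes in the table, of which 42 are writers, which add a group, and 34 are erasers, which take one off. Expression passed the minimum for testing, a mean of at least 0.5 FPKM (the count divided by the gene's exonic length and by the library's total count) over the 6 libraries, in 71 of the 76, or 41 writers and 30 erasers. The sides, classes and marks follow the known activity of each enzyme, and some members, such as SETD3 and SETD6, act mainly on proteins other than histones.

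DNA is wound around histones, and the tails of these proteins carry marks that are written and erased by opposing enzymes. Acetylation by acetyltransferases (KAT genes) is found at active promoters and enhancers and is removed by histone deacetylases (HDAC genes) and sirtuins. Methylation is read by position, where histone H3 lysine 4 (H3K4) and lysine 36 (H3K36) methylation accompany transcription, and lysine 9 (H3K9) and lysine 27 (H3K27) methylation accompany silencing. Both sides are studied in glioma because histone marks are often altered in these tumours.

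U87-MG is an established human glioma line. The 3 NC libraries carry the genotype label wildtype and are the negative control, and the 3 libraries labelled GRIK1 siRNA carry a label of GRIK1 knockdown. The GRIK1 gene encodes a subunit of the kainate glutamate receptor. The siRNA was introduced with a lipid reagent per the study's methods, while the series' design names shRNA, and the time of harvest was not given in the sources used here. The numbers 1 to 3 of the libraries labelled GRIK1 siRNA are also the numbers of 3 siRNA sequences in the methods, and the labels do not say which meaning applies, nor whether libraries came from separate cultures. The study states that siRNA1 was chosen for later experiments, without naming the sequencing. The p-values therefore measure only the spread between these libraries, which may be technical.

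Total counts lay between 11099909 and 14006968 per library. GRIK1 itself was counted 18, 9 and 8 times in NC 1, 2 and 3, against 15, 20 and 20 times under the GRIK1 siRNA label, a log2 fold change of 0.44 ± 0.43 (SE, edgeR adjusted p = 0.620). GRIK1 was not lower where the label says knockdown, so every direction below is that of the labelled libraries only. NC library 3 stood apart, with a Pearson correlation over genes, on log2(CPM + 1), of 0.967 and 0.971 with NC 1 and NC 2 against 0.996 between those 2, and the main results below are therefore also given without it. The mesenchymal genes VIM (825 to 1076 FPKM) and CD44 (50.8 to 71.6 FPKM) were high, FN1 was at 11.6 in NC 3 and at 62.9 to 93.3 in the other libraries, CHI3L1 was at 1.70 to 3.53, and NES did not exceed 0.69. The astroglial genes GFAP, S100B and SOX2 did not exceed 0.28 FPKM, and the neuronal and immune markers read did not exceed 0.33 FPKM. In bulk RNA, fewer cells of a type and less RNA per cell cannot be told apart.

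The promoters of KMT2A, KMT2B, KMT2C and KMT2D, 4 of the 7 H3K4 methyltransferases described below, are shown first. That of KAT2B, the 1 member called lower in 6 libraries, follows. Each is the stretch of 250 bases before to 50 bases after the RefSeq transcription start on GRCh38.p14, written in the direction of the gene. Capitals mark GC boxes (GGGCGG, or CCGCCC for the other strand), the element read by the SP1 family, and runs of capitals hold overlapping or adjoining boxes. KMT2A lies at chr11:118436242-118436541 on the plus strand, KMT2B at chr19:35717753-35718052 on the plus strand, KMT2C at chr7:152435954-152436253 on the minus strand, KMT2D at chr12:49060745-49061044 on the minus strand and KAT2B at chr3:20040196-20040495 on the plus strand.
KMT2A: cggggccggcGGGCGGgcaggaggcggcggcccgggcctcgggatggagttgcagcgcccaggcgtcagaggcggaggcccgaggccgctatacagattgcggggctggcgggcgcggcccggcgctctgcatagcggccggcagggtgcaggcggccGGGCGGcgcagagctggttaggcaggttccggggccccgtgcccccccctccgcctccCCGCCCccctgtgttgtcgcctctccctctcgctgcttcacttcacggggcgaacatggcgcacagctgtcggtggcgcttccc
KMT2B: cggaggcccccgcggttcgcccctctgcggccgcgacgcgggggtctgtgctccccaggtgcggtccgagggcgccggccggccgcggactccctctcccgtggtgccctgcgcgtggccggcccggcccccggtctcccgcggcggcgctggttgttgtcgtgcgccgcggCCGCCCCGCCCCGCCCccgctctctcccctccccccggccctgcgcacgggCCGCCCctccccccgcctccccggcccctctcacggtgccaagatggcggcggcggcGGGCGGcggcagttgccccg
KMT2C: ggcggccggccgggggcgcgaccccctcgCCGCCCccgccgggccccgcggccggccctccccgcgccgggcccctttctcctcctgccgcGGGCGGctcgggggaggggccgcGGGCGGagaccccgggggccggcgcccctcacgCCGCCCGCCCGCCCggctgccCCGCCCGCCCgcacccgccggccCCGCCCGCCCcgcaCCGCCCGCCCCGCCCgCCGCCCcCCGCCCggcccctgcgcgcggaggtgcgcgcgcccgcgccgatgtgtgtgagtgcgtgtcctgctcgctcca
KMT2D: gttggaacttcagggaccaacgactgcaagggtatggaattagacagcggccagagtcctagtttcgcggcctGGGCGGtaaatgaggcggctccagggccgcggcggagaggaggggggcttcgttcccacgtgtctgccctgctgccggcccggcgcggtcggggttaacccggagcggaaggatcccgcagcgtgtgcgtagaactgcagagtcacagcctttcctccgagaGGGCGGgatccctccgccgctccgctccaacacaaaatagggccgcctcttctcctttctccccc
KAT2B: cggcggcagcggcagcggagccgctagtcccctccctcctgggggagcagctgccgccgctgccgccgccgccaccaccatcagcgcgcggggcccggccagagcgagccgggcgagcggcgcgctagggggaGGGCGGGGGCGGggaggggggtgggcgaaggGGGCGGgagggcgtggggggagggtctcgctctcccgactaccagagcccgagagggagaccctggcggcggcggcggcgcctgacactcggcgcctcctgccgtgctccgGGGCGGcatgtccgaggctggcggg

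The table of promoters held 69 of the 76 members, without KAT6A, KAT8, HDAC5, SETD1B, NSD3, SIRT7 and KDM4E. A GC box was found in 48 of these 69 (69.6%), against 44.6% of all 27305 promoters. The KMT2C promoter held 15 boxes, KMT2B 5, KMT2A 3 and KMT2D 2, and the KAT2B promoter, of a gene that moved in the opposite direction, held 4. KDM7A and HDAC4, which were called higher, held 1 and 0. SETD1A and SETD7, also H3K4 methyltransferases, held 4 and 0. The GC content was 88.7% in the KMT2C promoter, 65.0% in KMT2D, 77.0% in KDM7A and 54.3% in HDAC4, against a mean of 57.2% over all promoters. CCAAT (or ATTGG) was in 31.9% of member promoters and 35.7% of all, and CCGGAAG (or CTTCCGG), the core read by ETS factors, was in 18.8% and 10.7%. TATAAA (or TTTATA) was in 0 of the 69 and in 11.95% of all promoters. These counts describe letters in a window and are not evidence of binding.

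Among the writers, the H3K4 methyltransferase KMT2C rose and the acetyltransferase KAT2B fell in the libraries labelled GRIK1 siRNA. Among the erasers, the class IIa deacetylase HDAC4 and the demethylase KDM7A rose. These were 4 of the 71 members tested, 3 higher (4.23%) and 1 lower (1.41%) at an adjusted p under 0.05 in edgeR's quasi-likelihood test, with the adjustment over all 15870 genes tested. Over all genes tested, 1.61% were higher and 1.48% lower by the same rule. With a log2 fold change beyond 1 as well, KMT2C was higher and KAT2B lower, against 0.87% and 0.542% of all genes. At an unadjusted p under 0.05, 16 members were higher and 4 lower, against 1897 higher and 2090 (13.2%) lower of the 15870 genes tested. All 4 calls were lost when NC 1, NC 2 or any 1 labelled library was left out, and held when NC 3 was left out.

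More members were higher than lower. Of the 71, 48 (67.6%) had a positive log2 fold change, against 48.6% of all genes tested, and the median was 0.19 against -0.02. Counts scaled to library size with TMM factors (normalized CPM) did not overlap between the groups for 30 members that were higher (42.3%) and 5 that were lower (7.04%), against 19.4% and 19.0% of all genes. Without NC 3, the members' median was 0.13 against 0.01 for all genes. In that fit of 5 libraries 23 members were higher and 9 lower, where 16.9% and 18.3% of all genes were called, and the 4 genes named above were among these 32. With the fold threshold added, KMT2B, KMT2D and SETD1B were higher and KAT2B lower in that fit, where 2.09% and 1.0% of all genes passed.

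**Figure D1:**
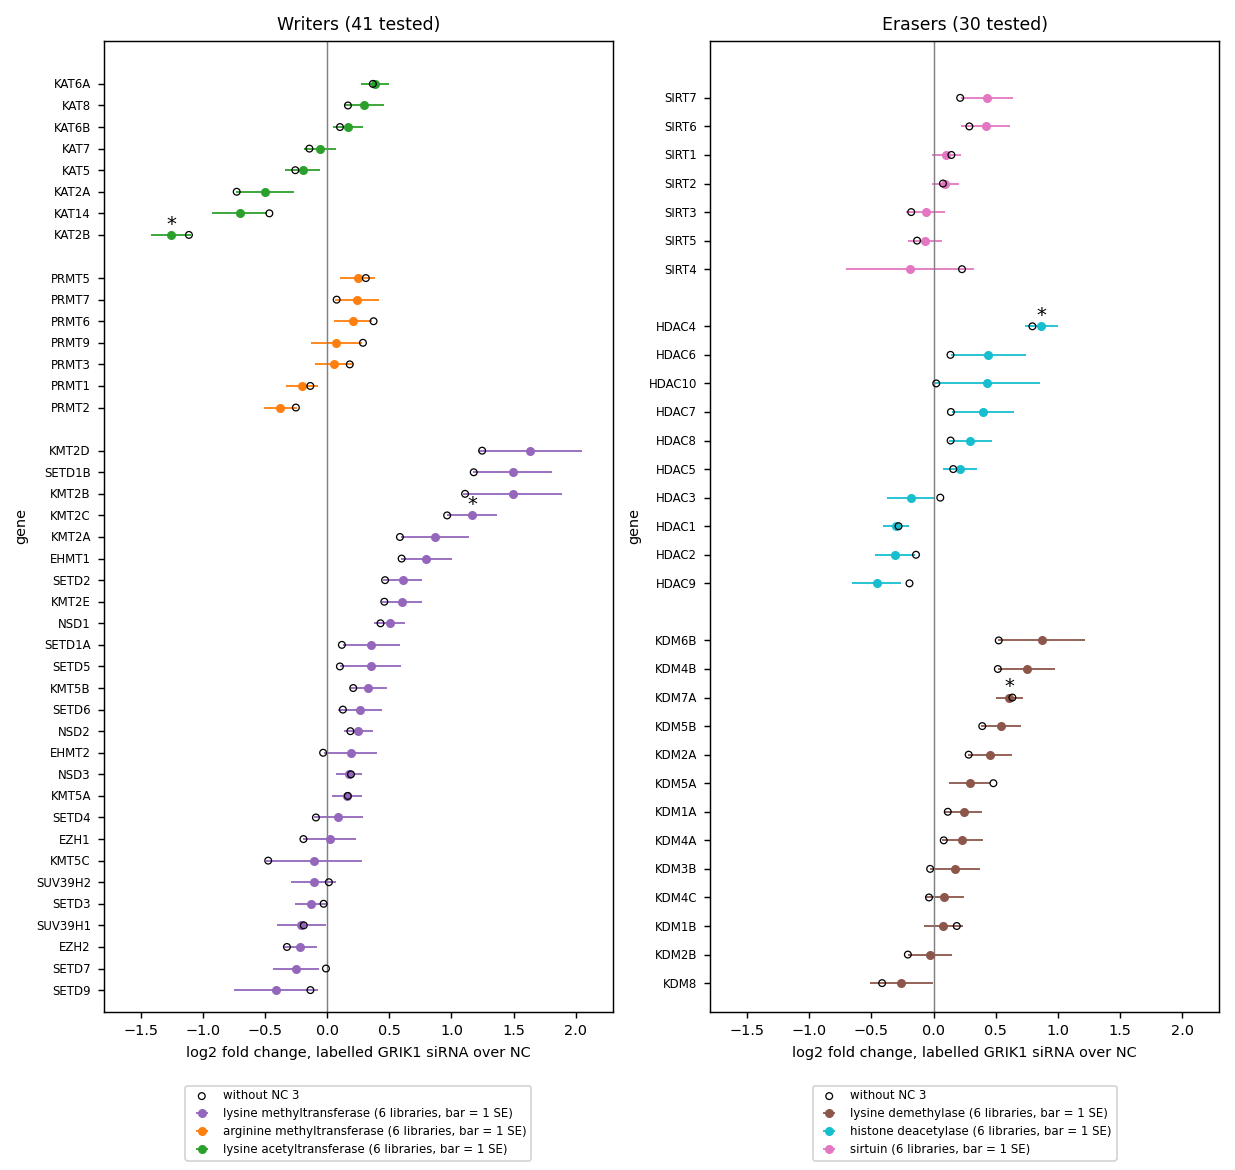
Log2 fold change (horizontal axis, libraries labelled GRIK1 siRNA over NC) of the 41 writers and 30 erasers tested, by class. Filled points with bars of 1 SE are from all 6 libraries, open circles are from the fit without NC 3, and an asterisk marks an adjusted p under 0.05 in the 6-library fit. KMT2B, KMT2C, KMT2D and SETD1B lie to the right of 1 and KAT2B lies at -1.26.

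Writers and erasers had similar medians. The median log2 fold change was 0.17 over the 41 writers and 0.22 over the 30 erasers, a difference of -0.05, and 0.12 and 0.14 without NC 3. Positive values were found in 27 writers (65.9%) and 21 erasers (70.0%), against 48.6% of all genes tested. Groups did not overlap in 18 writers that were higher (43.9%) and 3 that were lower (7.32%). The same held for 12 erasers that were higher (40.0%) and 2 that were lower (6.67%). Over all genes tested, these shares were 19.4% higher and 19.0% lower. No direction of writers against erasers as a whole can be read from these values, and the differences lay between marks and between members of a class.

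The H3K4 methyltransferases held the 4 highest positive log2 fold changes among the members. The list has 7 genes, namely KMT2A and KMT2B, which bind promoters and developmental genes, KMT2C and KMT2D, which write monomethylation at enhancers, SETD1A and SETD1B, which write trimethylation at promoters, and the monomethyltransferase SETD7. KMT2C rose at an adjusted p under 0.05, and in 6 of the 7 the labelled libraries all lay above all NC libraries, against 19.4% of all genes tested. Their median log2 fold change was 1.17, and 0.96 without NC 3, where 5 of the 7 passed the test, against 16.9% of all genes that were higher in that fit. The median of this list was not among the results planned in advance. DESeq2 on all 6 libraries called the same number, 5 of 7, namely KMT2C, SETD1B (adjusted p = 0.000298), KMT2D (0.00168), KMT2B (0.00402) and KMT2A (0.0334). KMT2A, KMT2C and KMT2D have exonic sizes of at least 20000 bases by the lengths used for FPKM. Of all 245 tested genes of that size, 46.5% were higher with no overlap and 46.9% were higher without NC 3. DESeq2 called 864 of all 15870 genes higher, and 60 of those 245.

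KMT2C (ENSG00000055609, chr7:152134922-152436644 on GRCh38, minus strand) had 139, 138 and 83.8 normalized CPM for NC 1, 2 and 3, against 271, 272 and 267 for the libraries labelled GRIK1 siRNA 1, 2 and 3. The groups did not overlap and NC 3 was the lowest library. The means were 120 ± 31.5 and 270 ± 2.86 (SD, n = 3), a 2.25-fold difference and a log2 fold change of 1.17 ± 0.20 (SE, adjusted p = 0.0373 in edgeR). Without NC 3 the log2 fold change was 0.96 ± 0.05 (adjusted p = 1.12e-10). Near-identical partial copies of KMT2C exist elsewhere in the genome, and 238 of its exonic bases are shared with FABP5P3 on the opposite strand, so some of its reads are of uncertain origin. The table gives it an exonic size of 53322 bases, the length by which its FPKM was divided, where GENCODE 29 gives 20114.

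KMT2D (chr12:49018975-49060794, minus strand) had 177, 147 and 48.0 normalized CPM in NC and 351, 416 and 386 in the labelled libraries. The groups did not overlap, and NC 3 lay far below NC 1 and NC 2. The log2 fold change of 1.63 ± 0.42 (SE) did not pass in all 6 libraries (edgeR adjusted p = 0.0785), and was 1.25 ± 0.07 without NC 3 (adjusted p = 1.58e-09). KMT2B (chr19:35717973-35738880, plus strand) had 44.6, 44.99 and 13.6 in NC and 106, 93.3 and 90.2 in the labelled libraries. Its NC 3 value was again the low one, and the log2 fold change was 1.49 ± 0.40 with an adjusted p of 0.0865 in edgeR, or 1.11 ± 0.08 without NC 3 (adjusted p = 7.81e-09).

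SETD1B (chr12:121804009-121832656, plus strand) had 40.4, 33.8 and 15.4 normalized CPM in NC and 89.6, 78.2 and 83.7 in the labelled libraries. The log2 fold change was 1.49 ± 0.32 (edgeR adjusted p = 0.0521), and 1.18 ± 0.08 without NC 3 (adjusted p = 1.11e-08). KMT2A (chr11:118436456-118526832, plus strand) had 61.4, 63.1 and 29.2 in NC and 91.8, 94.7 and 93.3 in the labelled libraries, at 0.87 ± 0.27 (edgeR adjusted p = 0.117), or 0.59 ± 0.06 without NC 3 (adjusted p = 7.74e-07). KMT2A shares 5599 exonic bases with AP001267.5 on its own strand, so its count may leave out or take in reads of that gene. The other 2 members of the list did not pass either fit, SETD1A at 0.36 and 0.12 without NC 3, and SETD7 at -0.25 and -0.01. In all 5 of KMT2A, KMT2B, KMT2C, KMT2D and SETD1B the groups stayed apart, the labelled libraries lay close together, and most of the spread was within NC. Exonic bases shared with a gene on the opposite strand made up 1.27% of KMT2D, 0.759% of KMT2B and 0 of SETD1B, and the strand setting of the counts was not given in the sources used here.

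**Figure D2:**
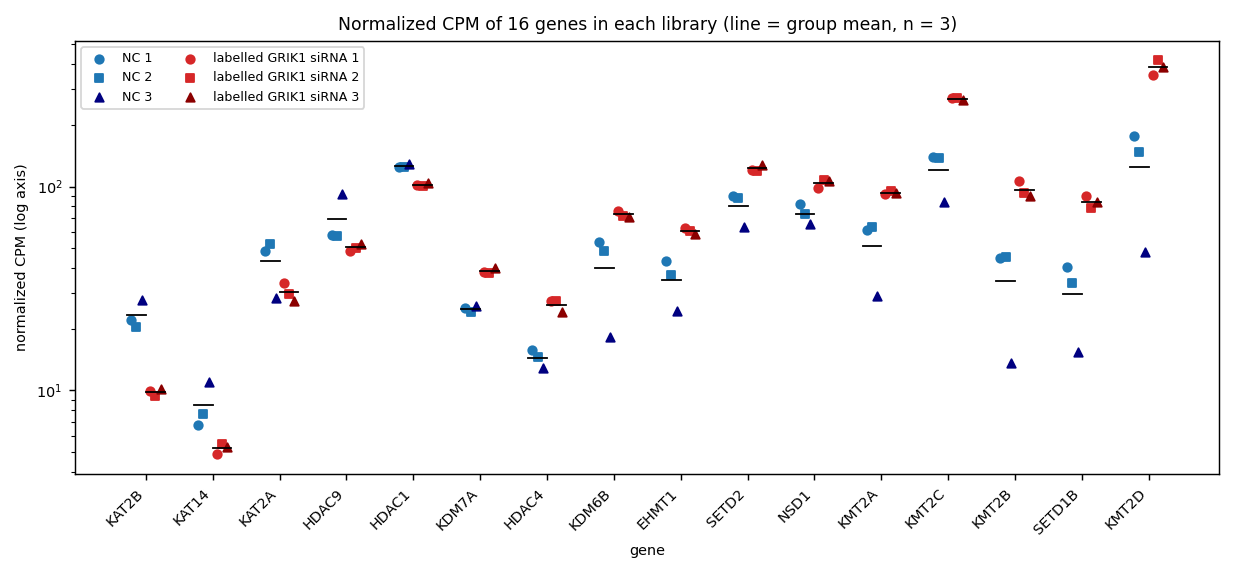
Normalized CPM (vertical log axis) of 16 members in each of the 6 libraries, where blue symbols are NC 1 to 3, red symbols are the libraries labelled GRIK1 siRNA 1 to 3, and black lines are group means (n = 3). NC 3 (dark blue triangle) lies below the other NC libraries for the KMT2 genes, SETD1B and KDM6B, and above them for KAT2B, KAT14 and HDAC9.

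The 4 H3K36 methyltransferases lay higher in every labelled library than in any NC library, as did 19.4% of all genes and 46.5% of the genes with an exonic size of at least 20000 bases. NSD1 and NSD2 are above that size by the lengths used for FPKM, and below it in GENCODE 29 (15493 and 19776 bases). SETD2, which writes trimethylation and travels with RNA polymerase II, had 90.0, 88.1 and 63.5 normalized CPM in NC and 120, 120 and 128 in the labelled libraries, a log2 fold change of 0.61 (adjusted p = 0.0779). The dimethylating enzymes NSD1, NSD2 and NSD3 were at 0.50, 0.25 and 0.17. By edgeR 0 of the 4 passed in 6 libraries, with 2 at an unadjusted p under 0.05 and 2 called by DESeq2, and 4 passed without NC 3, at log2 fold changes of 0.19 to 0.47. In that fit 16.9% of all genes, and 46.9% of those of at least 20000 bases, were higher.

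The writers of the silencing marks had values on both sides of 0. EZH2, the catalytic subunit of Polycomb repressive complex 2 (PRC2), had 68.6, 63.8 and 51.7 normalized CPM in NC and 51.6, 53.1 and 53.6 in the labelled libraries. These groups overlapped through NC 3, and the log2 fold change was -0.22 (adjusted p = 0.348), or -0.32 without NC 3 (adjusted p = 0.000988). Its paralog EZH1 was at 0.02. By edgeR 0 of these 2 H3K27 writers were called, 0 had an unadjusted p under 0.05 and DESeq2 called 0. Of the 4 H3K9 methyltransferases, EHMT1, which acts as a dimer with EHMT2, was the only one whose groups did not overlap, with 43.2, 36.8 and 24.5 in NC and 62.3, 60.7 and 58.7 in the labelled libraries. Its log2 fold change was 0.80 ± 0.20 (adjusted p = 0.0762), and 0.60 without NC 3 (adjusted p = 1.43e-05). EHMT2 (0.19), SUV39H1 (-0.21) and SUV39H2 (-0.11) passed neither fit. Of the 3 H4K20 methyltransferases none was called by edgeR or DESeq2 or had an unadjusted p under 0.05, and KMT5A, KMT5B and KMT5C were at 0.16, 0.33 and -0.11. Without NC 3, KMT5B was higher (0.21, adjusted p = 0.0345) and KMT5C lower (-0.48, adjusted p = 0.0227).

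Writers with no assigned histone mark were also spread on both sides of 0. KMT2E, a relative of the KMT2 enzymes that is not known to methylate histones, had 100, 88.4 and 67.3 normalized CPM in NC and 129, 127 and 132 in the labelled libraries, a log2 fold change of 0.60 (adjusted p = 0.0831, and 1.28e-05 without NC 3). SETD5 (0.35), SETD6 (0.26), SETD4 (0.09), SETD3 (-0.13) and SETD9 (-0.41) passed neither fit. SETD3, an actin histidine methyltransferase, had the highest level of the lysine methyltransferase class at a mean of 17.8 FPKM, with 88.1, 93.6 and 111 normalized CPM in NC and 89.5, 84.8 and 92.5 in the labelled libraries (-0.13 ± 0.13, adjusted p = 0.531).

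The 8 lysine acetyltransferases differed from one another in direction. Their median log2 fold change was -0.13, and -0.20 without NC 3, and the low values belonged to KAT2B, KAT14 and KAT2A. KAT2A (GCN5) and KAT2B (PCAF) are the alternative catalytic subunits of the SAGA and ATAC coactivator complexes, and KAT14 is a subunit of ATAC.

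KAT2B (ENSG00000114166, chr3:20040446-20154404, plus strand) had 22.1, 20.5 and 27.8 normalized CPM for NC 1, 2 and 3, against 9.98, 9.34 and 10.1 in the labelled libraries. Every labelled library lay below every NC library, and here NC 3 was the highest. The means were 23.5 ± 3.87 and 9.82 ± 0.426 (SD, n = 3), and the level fell by 1.26 ± 0.16 (SE) on the log2 scale, to 0.419 of the NC level (adjusted p = 0.0240 in edgeR). Without NC 3 it fell by 1.11 ± 0.11 (adjusted p = 8.86e-07). Its counts were 248, 228 and 346 against 127, 121 and 137, and it shares no exonic base with another gene in GENCODE 29.

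KAT14 had 6.77, 7.63 and 11.02 normalized CPM in NC and 4.87, 5.48 and 5.26 in the labelled libraries, a log2 fold change of -0.70 ± 0.22 (adjusted p = 0.119 in edgeR, and 0.0450 without NC 3 at -0.47). KAT14 shares 712 exonic bases with PET117 on the same strand. KAT2A had 48.6, 52.2 and 28.3 in NC and 33.8, 29.9 and 27.5 in the labelled libraries, so that the groups overlapped through NC 3. Its log2 fold change was -0.50 ± 0.23 (adjusted p = 0.222), or -0.73 ± 0.09 without NC 3 (adjusted p = 7.50e-06), and it shares 405 exonic bases with AC099811.2 on the same strand. In the other direction KAT6A, a MYST-family enzyme, had 32.5, 32.9 and 31.4 in NC and 40.5, 41.9 and 43.9 in the labelled libraries, where NC 3 was close to the other NC libraries (0.38, adjusted p = 0.0968, and 0.00189 without NC 3). KAT8 (0.30), KAT6B (0.17), KAT7 (-0.05) and KAT5 (-0.20) passed neither fit.

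Of the 7 arginine methyltransferases tested, 0 were called by edgeR, 1 had an unadjusted p under 0.05 and DESeq2 called 0. PRMT2, a coactivator of nuclear receptors, was the one whose groups did not overlap, with 96.4, 92.6 and 120 normalized CPM in NC and 79.1, 80.7 and 77.9 in the labelled libraries (log2 fold change -0.38 ± 0.13, adjusted p = 0.143, and 0.00211 without NC 3). PRMT1, which makes most asymmetric dimethylarginine in cells, had the highest level of all members at a mean of 37.5 FPKM. It had 183, 188 and 211 normalized CPM in NC and 186, 162 and 157 in the labelled libraries, which overlapped, at a log2 fold change of -0.20 ± 0.13 (adjusted p = 0.346). Without NC 3, PRMT5 (0.31) and PRMT6 (0.37) were higher and PRMT2 (-0.25) was lower. PRMT7 (0.24), PRMT9 (0.07) and PRMT3 (0.05) passed neither fit.

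Among the erasers, 11 of the 13 lysine demethylases tested had positive values and their median log2 fold change was 0.24. KDM7A, which removes methyl groups from H3K9 and H3K27, rose (chr7:140084746-140176983, minus strand). It had 25.4, 24.2 and 26.0 normalized CPM in NC and 37.9, 37.8 and 39.7 in the labelled libraries. NC 3 did not stand apart here, and all labelled libraries lay above all NC libraries. The means were 25.2 ± 0.883 and 38.5 ± 1.08 (SD, n = 3), a log2 fold change of 0.61 ± 0.11 (adjusted p = 0.0387 in edgeR), and of 0.63 ± 0.09 without NC 3 (adjusted p = 2.32e-05).

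KDM6B (JMJD3), the other H3K27 demethylase among the members, had 53.3, 48.5 and 18.3 normalized CPM in NC and 76.2, 72.0 and 71.1 in the labelled libraries. The groups did not overlap but NC 3 was low, and the log2 fold change was 0.87 ± 0.35 (adjusted p = 0.179 in edgeR), or 0.52 ± 0.07 without NC 3 (adjusted p = 1.35e-05). KDM4B, which demethylates H3K9 and H3K36, was at 0.75 (adjusted p = 0.110), and at 0.52 without NC 3 (adjusted p = 6.73e-06). The H3K4 demethylases KDM5B (0.54), KDM5A (0.29), KDM1A (0.24) and KDM1B (0.08) were all positive, and 0 of these 4 were called by edgeR in 6 libraries, with 1 at an unadjusted p under 0.05 and 1 called by DESeq2. Without NC 3, KDM5A (0.48) and KDM5B (0.39) passed. The H3K36 demethylase KDM2A had 101, 95.6 and 65.2 in NC and 118, 121 and 120 in the labelled libraries (0.45 ± 0.17, adjusted p = 0.166, and 0.28 with 0.000556 without NC 3), while its paralog KDM2B was at -0.03, and at -0.21 without NC 3 (adjusted p = 0.0335). KDM4A (0.23), KDM3B (0.18), KDM4C (0.09) and KDM8 (-0.26) passed neither fit.

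The deacetylases differed in direction, also within a class. HDAC4 (chr2:239048168-239401654, minus strand), a class IIa enzyme that shuttles between cytoplasm and nucleus, had 15.8, 14.6 and 13.0 normalized CPM in NC and 27.5, 27.3 and 24.3 in the labelled libraries. The groups lay well apart and no NC library stood out. Its means were 14.5 ± 1.42 and 26.4 ± 1.80 (SD, n = 3), a 1.83-fold difference and a log2 fold change of 0.87 ± 0.14 (adjusted p = 0.0306 in edgeR), or 0.80 ± 0.11 without NC 3 (adjusted p = 2.10e-05). HDAC9, another class IIa gene, had 58.2, 57.3 and 92.1 in NC and 48.6, 50.2 and 52.4 in the labelled libraries, and was at -0.46 ± 0.20 (adjusted p = 0.203), or -0.19 without NC 3 (adjusted p = 0.0357). HDAC5 (0.21) and HDAC7 (0.40), of the same class, passed neither fit.

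HDAC1, the class I enzyme with the highest level among the erasers at 28.5 FPKM, had 124, 124 and 129 normalized CPM in NC and 102, 100 and 104 in the labelled libraries. The groups did not overlap and NC 3 was close to the other NC libraries, and the log2 fold change was -0.30 ± 0.10 (adjusted p = 0.133 in edgeR, and 0.000389 without NC 3 at -0.28). The other class I genes HDAC2 (-0.31), HDAC3 (-0.19) and HDAC8 (0.30), and the class IIb genes HDAC6 (0.44) and HDAC10 (0.43), passed neither fit. Of the 7 sirtuins, which use NAD as a cofactor, edgeR called 0, none had an unadjusted p under 0.05 and DESeq2 called 0. SIRT7 (0.43), SIRT6 (0.42), SIRT1 (0.10) and SIRT2 (0.10) were positive and SIRT3 (-0.06), SIRT5 (-0.07) and SIRT4 (-0.19) negative. Without NC 3, SIRT7 passed at 0.21 (adjusted p = 0.0315). SIRT6, the sirtuin with the highest level at 9.32 FPKM, had 24.6, 23.3 and 17.8 normalized CPM in NC and 36.1, 25.7 and 25.8 in the labelled libraries (0.42 ± 0.19, adjusted p = 0.223).

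The 5 members below the expression minimum were 1 writer and 4 erasers. HDAC11 had counts of 29, 21 and 37 in NC and 26, 34 and 37 in the labelled libraries, a mean of 0.468 FPKM and thus just below the minimum. KDM4D had 0 to 7 counts per library, PRMT8 had 1 count in 1 library, and KDM4E and KDM4F were at 0 in all 6.

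To set writers against erasers for a single mark, the FPKM of the members on each side were summed in each library, counting an enzyme of several marks under each. The 4 symbols left out by the rule, all lysine demethylase genes, are in none of these sums. The eraser side of H3K4, H3K9 and H3K27 is therefore incomplete. Enzymes outside the rule on symbols are in none of the sums either. These include the writers SETDB1, SETDB2, PRDM2 and ASH1L and the erasers JMJD1C, PHF2 and PHF8. The sums of both sides thus cover the members alone. For H3K4 (7 writers, 4 erasers) the ratio of writers to erasers was 2.31, 2.18 and 1.52 in NC 1, 2 and 3 and 3.08, 3.11 and 2.92 in the labelled libraries. For H3K27 (2 writers, 2 erasers) it was 1.20, 1.32 and 1.57 in NC and 0.707, 0.730 and 0.708 in the labelled libraries. The groups therefore did not overlap in either ratio, with the first higher and the second lower in the labelled libraries, and this held with and without NC 3. The H3K27 erasers summed to 10.03, 9.16 and 4.66 FPKM in NC and to 14.8, 14.1 and 14.2 in the labelled libraries, while the writers summed to 12.02, 12.08 and 7.30 and to 10.43, 10.32 and 10.03.

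For H3K36 the ratio was 0.747, 0.739 and 0.969 in NC and 0.812, 0.803 and 0.808 in the labelled libraries. For acetylation (8 writers, 18 erasers) it was 0.358, 0.369 and 0.293 in NC and 0.311, 0.287 and 0.290 in the labelled libraries. In both the groups overlapped only through NC 3. The acetylation writers summed are the KAT genes alone, and acetyltransferases outside the rule on symbols are not in the sum. In 6 libraries CREBBP (log2 fold change 0.53), NCOA1 (0.52), EP300 (0.51) and NCOA3 (0.12) were positive. HAT1 (-0.56) and NAA40 (-0.04) were negative. For H3K9 the ratio of 0.418 to 0.483 in NC overlapped that of 0.383 to 0.433 in the labelled libraries, also without NC 3. Over all 42 writers and 34 erasers the ratio was 1.49, 1.49 and 1.52 in NC and 1.55, 1.52 and 1.52 in the labelled libraries. Here too the groups overlapped only through NC 3, and without it the means were 1.49 in NC and 1.53 in the labelled libraries. These sums weight each gene by its FPKM and by the exonic size used to compute it. They are levels of RNA, and neither the enzymes nor the marks were measured.

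**Figure D3:**
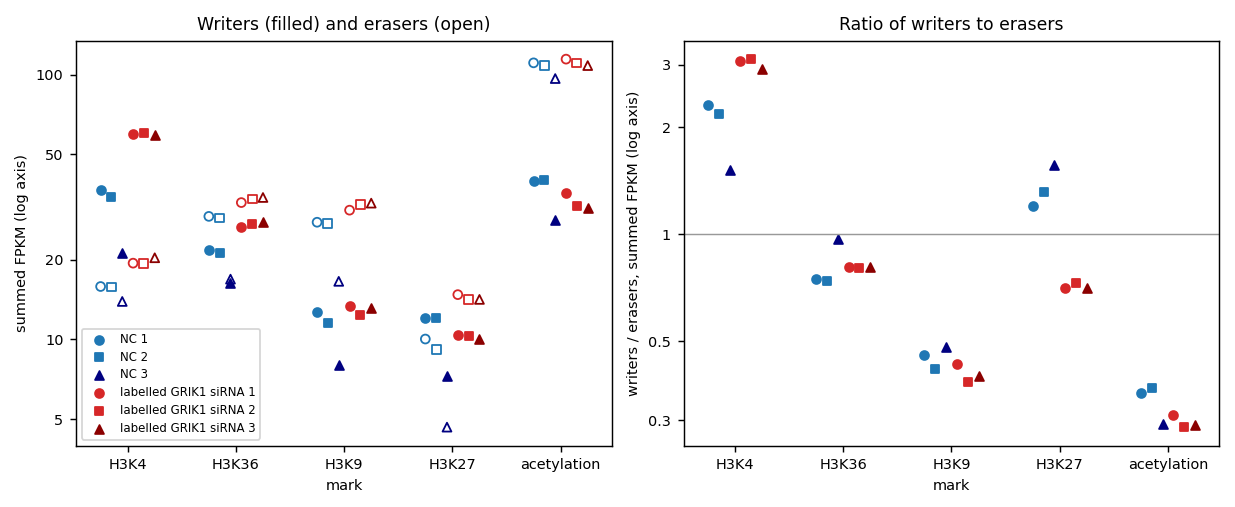
Left, the summed FPKM (log axis) of the member writers (filled) and member erasers (open) of each mark in each library. Right, the ratio of the 2 sums (log axis), with NC in blue and the libraries labelled GRIK1 siRNA in red. The H3K4 ratio lies at 1.52 to 2.31 in NC and 2.92 to 3.11 in the labelled libraries, and the H3K27 ratio lies above 1 in NC and below 1 in the labelled libraries.

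The members that were higher tended to be long. Across the 71 members, which share libraries and depth, the log2 fold change had a Pearson correlation of 0.48 (Spearman 0.51) with the log10 of the exonic size in the table, and 0.42 without NC 3, while over all 15870 genes it was -0.17 (Spearman -0.01). All 11 members of at least 20000 bases, among them KMT2A, KMT2C, KMT2D, NSD1 and EHMT1, were higher with no overlap, at a median log2 fold change of 0.50. These sizes depend on the annotation. GENCODE 29 gives fewer exonic bases for KMT2C (20114 against 53322), and puts SETD5 (10808), NSD1 (15493) and NSD2 (19776) below 20000. Of the 245 tested genes of that size, 46.5% were higher with no overlap and the median was 0.18. The 18 members under 5000 bases had a median of -0.15, and all 9369 tested genes under 5000 bases had a median of -0.05. The part of gene size in the members' differences was not tested.

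The position of NC 3 also moved with base composition. Across the 71 members, the difference of NC 3 from the mean of NC 1 and NC 2, as log2(normalized CPM + 1), had a Pearson correlation of -0.61 with the GC content of the longest transcript in GENCODE 29, against -0.35 over the 15529 tested genes with a transcript there. KMT2B, with 63.5% GC, and KDM6B, with 62.4%, were among the members lowest in NC 3, and HDAC9, with 40.2%, was among the highest. The correlation of GC content with the log2 fold change of the members was 0.26 in 6 libraries and 0.06 without NC 3. The part of GC content in the low values of NC 3 was not tested.

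**Figure D4:**
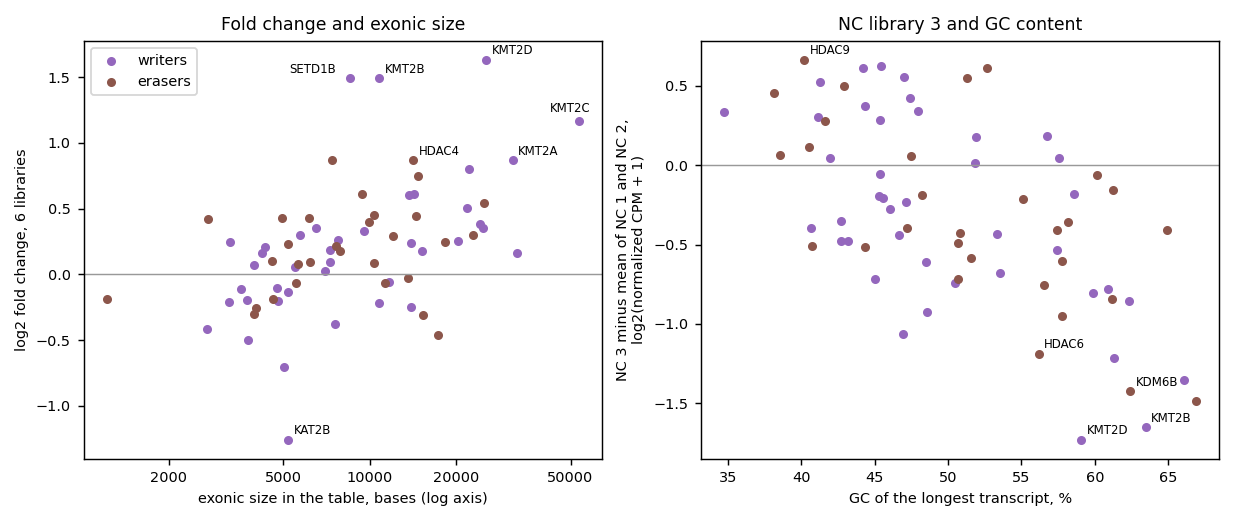
Left, log2 fold change in 6 libraries against the exonic size in the table (log axis, bases) for the 71 tested members, with writers in purple and erasers in brown. Right, NC 3 minus the mean of NC 1 and NC 2 on the log2(normalized CPM + 1) scale against the GC content of the longest transcript, where the Pearson correlation is -0.61.

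Partners and relatives that the rule on symbols does not take were read from lists, of which the genes with the largest changes are named. Of 11 subunits of the COMPASS complexes, which the KMT2 and SETD1 enzymes need for activity, edgeR called 0 in 6 libraries, with 1 at an unadjusted p under 0.05 and 0 called by DESeq2. Their median log2 fold change was 0.05, and 0.01 without NC 3. In that fit 3 were higher (27.3%) and 2 lower (18.2%), against 16.9% and 18.3% of all genes. HCFC1 was at 0.44, or 0.20 without NC 3 (edgeR adjusted p = 0.0246), PAXIP1 at 0.29 or 0.22 (adjusted p = 0.0277), and DPY30 at -0.29 or 0.01 (adjusted p = 0.967). Of 9 other PRC2 subunits edgeR called 0, with 1 at an unadjusted p under 0.05 and 1 called by DESeq2. Their median was -0.15, and without NC 3 edgeR called 1 higher (11.1%) and 3 lower (33.3%), against 16.9% and 18.3% of all genes. The largest change was in JARID2, which helps to recruit PRC2, with 40.0, 34.0 and 21.96 normalized CPM in NC and 54.9, 55.7 and 58.2 in the labelled libraries (0.81, edgeR adjusted p = 0.0797, and 1.72e-05 without NC 3 at 0.61).

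Of 24 subunits of acetyltransferase complexes edgeR called 0, with 1 higher and 4 lower at an unadjusted p under 0.05, and DESeq2 called 1 higher and 2 lower. The median was -0.03, and 0.06 without NC 3, where 6 were higher and 5 lower. TADA3, the adaptor that holds KAT2A or KAT2B in SAGA and ATAC, had 113, 110 and 162 normalized CPM in NC and 85.2, 70.7 and 71.9 in the labelled libraries (-0.76, edgeR adjusted p = 0.0679, and 1.18e-05 without NC 3 at -0.55). The groups did not overlap, and NC 3 was the highest, as for KAT2B. TRRAP, a scaffold subunit of SAGA, was at 0.90 (edgeR adjusted p = 0.0986), and at 0.64 without NC 3 (adjusted p = 1.12e-07).

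Of 14 tested corepressor subunits, which hold deacetylases and demethylases on chromatin, edgeR called 0, with 2 at an unadjusted p under 0.05 and 1 called by DESeq2. The median was 0.03, and 0.01 without NC 3. There 3 were higher (21.4%) and 2 lower (14.3%), against 16.9% and 18.3% of all genes. NCOR1, a scaffold for HDAC3, was at 0.47 (edgeR adjusted p = 0.0672), and at 0.41 without NC 3 (adjusted p = 1.32e-05). Of 17 other writer enzymes edgeR called 0, with 2 higher and 1 lower at an unadjusted p under 0.05 and 1 called by DESeq2. Their median was 0.11, and without NC 3 edgeR called 6 higher (35.3%) and 2 lower (11.8%), against 16.9% and 18.3% of all genes. The methyltransferase SMYD3 had 58.4, 56.0 and 120 normalized CPM in NC and 42.4, 43.2 and 46.3 in the labelled libraries, at -0.83 (edgeR adjusted p = 0.141), or -0.38 without NC 3 (adjusted p = 0.000557). DOT1L, the H3K79 methyltransferase, was at 0.56, or 0.26 without NC 3 (edgeR adjusted p = 0.00989), and the acetyltransferase CREBBP at 0.53, or 0.28 (adjusted p = 0.0198).

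Of 6 other eraser enzymes, with a median of 0.33, edgeR called 1 higher in 6 libraries, against 1.61% of all genes. Without NC 3 it called 3 higher, against 16.9%. The called gene was JMJD6, a dioxygenase reported to act on lysine and arginine. JMJD6 rose from 35.8, 32.7 and 34.5 normalized CPM in NC to 53.3, 51.6 and 50.7 in the labelled libraries (0.60 ± 0.11, edgeR adjusted p = 0.0392), and NC 3 lay within the other NC libraries.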

How the data were processed

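U87-MG cells were sequenced as 3 NC libraries and 3 libraries labelled GRIK1 siRNA, grouped by label alone. The authors deposited whole-number counts of 61806 genes and FPKM values computed from those counts with the exonic sizes in the table. The formula gave 100% of the FPKM values within 0.005. The submitters' processing notes name cutadapt 1.9.1, HISAT2, HTSeq and GRCh38, without roles, and the strand setting was not given in the sources used here. The number of value columns left unassigned was 0.

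Counts of the 15870 genes with a mean FPKM of at least 0.5 were scaled by TMM and compared by glmQLFTest (edgeR 4.0.16, R 4.3.3), the quasi-likelihood test, 3 libraries against 3, with Benjamini-Hochberg adjustment over all 15870 and no covariate. GRIK1 was read from the same fit without the minimum. The code was checked on simulated data. Levels between genes were compared as FPKM. Lists are described by counts and medians. Alternatives were other scaling, filters and fold thresholds, DESeq2 1.42.0, a replicate block and leaving out each library. GENCODE 29 gave GC content and overlapping genes, and RefSeq GRCh38.p14 gave promoters. Python 3.11.15, pandas 2.3.3 and numpy 2.4.6 were used for the remaining steps.

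The members, classes and lists were chosen with earlier results of these data known. Full statistics were given for members called in the 6-library fit, up to 5 rises and 5 falls of largest size among other members whose groups did not overlap (4 falls met this), the member with the highest mean FPKM in each class, members of the methylation marks as counts with examples, and up to 10 members called without NC 3. At most 4 genes were named per partner list where that list was described. Further writers and erasers outside the rule on symbols were named beside the sums of FPKM.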

Additional observations from a re-analysis of the deposited data

How the results depend on the processing

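For the 19 members given in full, no alternative turned the sign of the log2 fold change, and over the leave-one-out and other settings 161 values kept their side of the threshold, 23 passed it anew and 25 no longer passed. Median-of-ratios scaling and a mean FPKM of at least 1 moved none of these 19 across it. Without a filter on low values, 9 members were higher and 1 lower (with the fold threshold 4 and 1), and over all genes 727 were higher and 676 lower (448 and 216). KDM7A then no longer passed (adjusted p = 0.0538). With DESeq2, 14 members were higher (4 with the fold threshold) and all genes numbered 864 higher and 820 lower (339 and 160). A fold threshold of 1.5 gave 3 members higher, and 247 higher and 224 lower over all genes.

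NC library 3 decides the counts. Leaving out 1 library at a time gave 0 to 23 members higher and 0 to 9 lower (0 to 3 and 0 to 1 with the fold threshold), and 0 to 2682 genes higher and 0 to 2909 lower (0 to 332 and 0 to 159). The high ends came without NC 3, where edgeR's common dispersion fell to 0.00298 from 0.0391, and each of the other 5 libraries left out gave 0 calls, with 15 to 23 members at an unadjusted p under 0.05. The difference of writers and erasers in median was -0.116 to -0.0186, with the low end without NC 1.

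With the replicate number as a block, edgeR called 0 members and 0 genes in either direction, with 20 members and 3324 genes at an unadjusted p under 0.05. KAT2B then had an adjusted p of 0.0923, KMT2C and HDAC4 of 0.0946 and KDM7A of 0.125. Deviations of libraries with the same number correlated at -0.03, 0.03 and -0.02, so the numbers were not taken to pair the libraries.

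The minimum of 0.5 FPKM, not depth, kept HDAC11 out of the test. Low counts limit KDM4D and PRMT8, and KDM4E and KDM4F had none.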
